A study of Mus musculus with 13 samples.

Results

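The acid-sensing ion channels were examined in single excitatory neurons from the mouse claustrum and its borders. The 4 members were chosen by gene name, as the rows Accn1 to Accn4, which are the older symbols of Asic2, Asic1, Asic3 and Asic4, and they are 4 of the 23427 genes listed. The blindly sampled mouse's table lists 3 of the 4 and has no row for Accn3. Cells were selected on measured values: a cell was kept if it held at least 1 count of Snap25, a synaptic protein of all neurons, and at least 1 of Slc17a7, the vesicular glutamate transporter, which left 1011 of 1112 cells. Kept cells were then split by Slc30a3, the vesicular zinc transporter, into 379 cells with at least 20 CPM (counts per 1000000 counts of the cell) and 632 with less. These 3 genes chose or sorted the cells, so their own levels are no result here.

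All 4 animals were mature male C57BL/6 mice. The sample titles call only the blindly sampled mouse wild type, and no mutation is named for any. For tracer surgery the paper describes carprofen, isoflurane and bupivacaine, and it names no drug that differed between groups. In 3 of them, here projection mice 1 to 3, green retrobeads (fluorescent beads taken up by axon terminals) were placed in the lateral entorhinal cortex (LEC) and red retrobeads in the retrosplenial cortex (RSC). Cells were picked by hand, and the deposited label of each is LEC (286 kept), RSC (247 kept) or unlabeled. In the fourth, a retrograde virus carrying GFP was injected into the anterior cingulate cortex only to guide the dissection, and 238 cells were kept without regard to fluorescence. With these, 478 kept cells were unlabeled. The paper gives the same number as blindly selected, so whether each of them lacked beads is not known. A bead label reports that the injection site was reached by the axon, and an unlabeled cell may still project there.

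Kept cells had a median of 151387 counts in the projection mice and 26023 in the blindly sampled mouse, which was sequenced apart from the others, so depth and animal cannot be told apart there. Each of the 13 plates held cells of 1 label except 1 plate of projection mouse 3, so label and plate cannot be told apart outside that plate. No cell identifier was shared between libraries. All 6 core-like markers tested (Synpr, Gnb4, Lxn, Gfra1, Nr4a2 and Slc17a6) were lower in LEC than in RSC cells and 4 of 5 shell-like markers tested (Nnat, Spon1, Col6a1 and Mpped1) were higher, though Gfra1, Nnat and Spon1 were picked by the study from its own single-cell data and are no independent evidence. Among LEC cells 64.7% were Slc30a3-high, against 11.3% of RSC and 34.7% of unlabeled cells.

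Acid-sensing ion channels are sodium channels of the DEG/ENaC family that open when the fluid outside a neuron turns acid, as it does briefly at active synapses and more lastingly in ischemia. Each channel is a trimer of subunits. ASIC1 (Accn2) is the main proton-gated subunit of central neurons, ASIC2 (Accn1) joins it and alters gating and placement at dendritic spines, ASIC3 (Accn3) is best known from peripheral sensory neurons, and ASIC4 (Accn4) forms no proton-gated channel by itself and is thought to regulate the others.

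The genes are laid out very differently. In the GENCODE annotation of GRCm38, a later build than the one the submitters named, Asic2 covers 1088 kb of chromosome 11 (80880169 to 81968457, minus strand), Asic1 covers 30.8 kb of chromosome 15, Asic4 covers 23.9 kb of chromosome 1 and Asic3 covers 4.44 kb of chromosome 5. Only Asic4 shares exonic bases with another gene, 493 bases with Gm37264 on the opposite strand. Asic2 has 2 coding transcripts whose starts lie far apart, 815 kb between the RefSeq starts, yet both end at the same base and share 9 of their 10 exons. The libraries were primed at the poly(A) tail, so the Accn1 row sums both forms and cannot separate them. The promoter windows of the 2 starts are shown because the Accn1 values below cannot be assigned to either. Both are RefSeq sequences on GRCm38.p6, 250 bases before the start in lower case and the first 50 transcribed bases in capitals, at chr11:81968347-81968646 (minus strand) for the upstream start and at chr11:81152854-81153153 (minus strand) for the downstream one.
Upstream start: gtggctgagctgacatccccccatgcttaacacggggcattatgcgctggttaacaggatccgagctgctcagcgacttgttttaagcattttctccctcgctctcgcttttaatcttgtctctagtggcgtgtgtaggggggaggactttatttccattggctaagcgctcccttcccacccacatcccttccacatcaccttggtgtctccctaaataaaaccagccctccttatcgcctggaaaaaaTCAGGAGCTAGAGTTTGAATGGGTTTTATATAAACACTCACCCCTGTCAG
Downstream start: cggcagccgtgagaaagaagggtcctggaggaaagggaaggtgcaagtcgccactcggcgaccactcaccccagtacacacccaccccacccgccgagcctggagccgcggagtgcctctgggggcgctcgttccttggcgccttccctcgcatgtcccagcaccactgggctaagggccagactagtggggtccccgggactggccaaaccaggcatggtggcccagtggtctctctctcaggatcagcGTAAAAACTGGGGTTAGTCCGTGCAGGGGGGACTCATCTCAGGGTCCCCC
The upstream window holds 9 CG pairs in 300 bases and is 49.7% G or C, and the downstream window holds 16 and is 65.3% G or C. Over 32851 promoter windows of the same length the median is 7 CG pairs, and 54.2% and 67.0% of windows hold fewer than the upstream and the downstream one.

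Accn1 was higher in LEC-labeled than in RSC-labeled cells of every mouse. Its level in LEC cells was 78.8 CPM in projection mouse 1, 135 in mouse 2 and 151 in mouse 3, a mean of 122 ± 38.0 (SD, n = 3 mice). In RSC cells it was 39.9, 44.3 and 25.5 CPM, a mean of 36.6 ± 9.87. The lowest LEC value lay above the highest RSC value, and the ratio within a mouse was 1.97, 3.05 and 5.93. The share of all genes without such overlap is not given, so lack of overlap is description only, here and below. In the same mice unlabeled cells held 62.1, 78.9 and 70.8 CPM, so the order LEC, unlabeled, RSC held in each projection mouse. Cells of the blindly sampled mouse held 52.0 CPM. Across mice the unlabeled values stood clear of the RSC values but met the LEC values, 78.9 against 78.8 CPM.

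Accn4 differed most by label. LEC cells held 4.95, 13.7 and 9.39 CPM in projection mice 1, 2 and 3, a mean of 9.36 ± 4.39 (n = 3), from 436 counts. RSC cells held 0.305 and 0.708 CPM in mice 1 and 2, from 4 counts in 1 cell and 5 counts in another, and none in mouse 3, where 0 of 19860306 counts puts the LEC level at least 62.2-fold higher (floor of 3 counts for that library). That bound takes each count as a separate molecule, which reads need not be. The groups did not overlap. Unlabeled cells lay between in all 3 mice, at 2.15, 9.31 and 4.50 CPM, and at 3.39 CPM in the blindly sampled mouse. Counts were seen in 42.3% of LEC cells (121 of 286) and in 0.81% of RSC cells (2 of 247).

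Accn2 levels of the labels overlapped. LEC cells held 73.6, 49.6 and 73.1 CPM (mean 65.4 ± 13.7, n = 3) and RSC cells 56.4, 48.0 and 63.8 (mean 56.1 ± 7.91). The LEC value was nevertheless the higher one within each of the 3 mice. Unlabeled cells spanned 46.7 to 81.7 CPM over 4 mice. Accn3 was close to absent: its 4 counts came from 2 unlabeled cells of projection mouse 1, and 0 counts in mouse 3 allow up to 0.0548 CPM there.

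**Figure D1:**
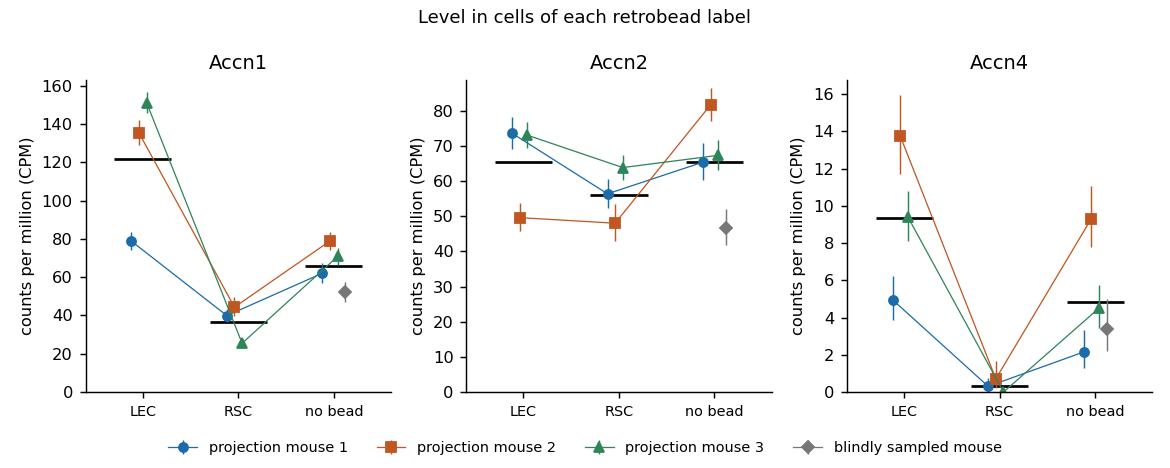
Level of Accn1, Accn2 and Accn4 in CPM (y axes, each from 0) by retrobead label (x axis), with a point for each mouse, its 95% Poisson counting interval and a black bar at the mean over mice. The axis name "no bead" stands for the unlabeled cells. Accn1 falls from 122 CPM in LEC to 36.6 in RSC cells and Accn4 from 9.36 to 0.338, while the Accn2 points of the labels overlap.

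In the fit of LEC against RSC on counts summed per mouse and label (edgeR quasi-likelihood test, Benjamini-Hochberg over 13242 genes), 507 genes passed the 0.05 threshold, 3.83% of those tested, of which 252 (1.9%) were higher in LEC. Of the members, 3 passed the low-count filter and 2 were called, both higher in LEC. Accn1 differed by 1.71 on the log2 scale (SE 0.29, adjusted p = 0.0154) and Accn4 by 4.96 (SE 1.08, adjusted p = 0.0420). Accn2 differed by 0.19 (95% interval -0.27 to 0.64, adjusted p = 0.757), so a difference of over 0.64 lies outside the interval. Accn3 was too low to be tested.

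These calls rest on few mice, and the fit left out that each mouse gave both sums. With the mouse as a block Accn1 stayed past the threshold (adjusted p = 0.0381) and Accn4 did not (log2 difference 5.13, adjusted p = 0.0655), and Accn1 lost its call without projection mouse 2 (1.78, adjusted p = 0.134) or without mouse 3 (1.31, 0.197), while Accn4 lost it without any 1 of mouse 1 (5.39, 0.104), mouse 2 (5.60, 0.177) and mouse 3 (4.20, 0.210). On the plate that held both labels, 44 LEC cells gave 134 CPM of Accn1 and 34 RSC cells gave 36.2 CPM, a ratio of 3.70 (95% counting interval 3.24 to 4.24). For Accn4 the same cells gave 65 counts against 0, at least 17.9-fold. Accn2 was also higher in the LEC cells of this plate, at 79.2 against 50.4 CPM, a ratio of 1.57 (1.38 to 1.79) where all labeled cells of that mouse gave 1.14. With that plate left out, both genes kept their calls (adjusted p = 0.0363 and 0.0459).

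Markers of other cell types differed between the labels. Summed oligodendrocyte markers reached 100 CPM in 37.8% of LEC cells and 13.8% of RSC cells, although their summed level ranged from 110 to 359 CPM over mice in LEC and from 37.4 to 878 CPM in RSC. Summed inhibitory markers ranged from 0.164 to 0.893 CPM in LEC and from 6.80 to 197 CPM in RSC, where Sst led and where 5 cells reached 100 CPM, and Gad1, Gad2 and Sst were at 0 in LEC cells of every mouse. Of all 1011 kept cells, labeled or not, 237 reached 100 CPM for any of 5 other cell types, a limit chosen after the data were seen. Without the labeled cells among them, Accn1 differed by 1.66 (adjusted p = 0.0373) and Accn4 by 4.61 (adjusted p = 0.0693).

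The split by Slc30a3, which used no label, gave a similar order in all 4 mice. Accn1 was at 109 CPM in Slc30a3-high cells of projection mouse 1, 126 in mouse 2, 148 in mouse 3 and 70.8 in the blindly sampled mouse (mean 113 ± 32.4, n = 4). In the lower cells it was at 40.6, 62.8, 45.9 and 41.6 CPM (mean 47.7 ± 10.3). The groups did not overlap, again as description only, and the ratio within a mouse ranged from 1.70 to 3.22. Accn4 was at 7.58, 17.4, 10.5 and 9.46 CPM in the high cells and at 0.535, 1.76, 1.10 and 0 CPM in the lower cells, also without overlap. In the blindly sampled mouse 25 counts faced none, at least 14.9-fold.

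Accn2 levels of the classes overlapped. The gene was at 78.4, 57.8, 69.3 and 43.2 CPM in Slc30a3-high cells and at 60.1, 67.1, 67.6 and 48.8 CPM in lower cells, higher in the first group in 2 of 4 mice. The means were 62.2 ± 15.2 and 60.9 ± 8.79 CPM. All 4 counts of Accn3 were in cells with no Slc30a3 count.

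**Figure D2:**
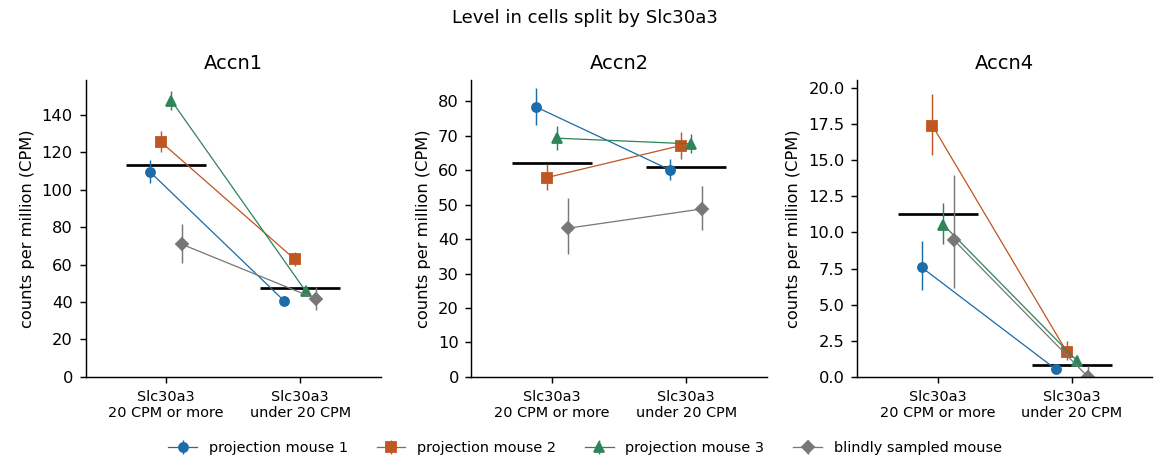
Level of Accn1, Accn2 and Accn4 in CPM (y axes, each from 0) in cells with at least 20 CPM of Slc30a3 and in the rest (x axis), drawn per mouse with 95% Poisson counting intervals, lines joining values of a mouse and black bars at the means. Every line falls for Accn1 (means 113 and 47.7 CPM) and for Accn4 (11.2 and 0.849 CPM), and the Accn2 lines cross.

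Of 13494 genes tested between Slc30a3-high and lower cells, 492 passed the threshold (3.65%), 174 of them higher in the high cells (1.29%). With the mouse as a block, 1043 passed. Of the 3 members tested, 2 were called in that direction: Accn1 differed by 1.22 (SE 0.22, adjusted p = 0.0126) and Accn4 by 3.59 (SE 0.68, adjusted p = 0.0163). Accn2 differed by 0.01 (95% interval -0.39 to 0.41, adjusted p = 0.999). Both calls were kept without the blindly sampled mouse and lost without projection mouse 1, 2 or 3, where adjusted p ranged from 0.0531 to 0.142 for Accn1 and from 0.0789 to 0.141 for Accn4. Within unlabeled cells alone Accn1 was called (adjusted p = 0.0447) and Accn4 was not (log2 difference 3.67, adjusted p = 0.166).

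Oligodendrocyte markers moved with this split as well, reaching 100 CPM in 35.1% of high cells and 14.1% of lower cells. Their summed level ranged over mice from 61.3 to 982 CPM in the high and from 24.5 to 256 CPM in the lower cells. Without the cells holding markers of other types the differences were 1.41 for Accn1 (adjusted p = 0.0101) and 4.11 for Accn4 (adjusted p = 0.00723). Near the limit, the 61 cells with some Slc30a3 but under 20 CPM held 54.3 CPM of Accn1 and 1.46 of Accn4, and the 10 cells from 20 to 40 CPM held 155 and 6.42 CPM.

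A finer split showed that the lower cells were not alike. Synpr, a synaptic vesicle protein and claustrum marker, was used with a limit of 100 CPM: 348 cells were high for Slc30a3 only, 420 for Synpr only, 31 for both and 212 for neither. The cells with neither carried the layer 6-like markers, with Foxp2 at 42.7 ± 2.18 CPM against 0.747 ± 1.25 in Synpr-only cells (n = 4 mice). Ctgf varied more, at 64.4 ± 94.9 CPM. The same cells also carried shell-like markers. Mpped1 was at 423 ± 38.01 CPM in them, 329 ± 66.04 in Slc30a3-only and 9.77 ± 4.28 in Synpr-only cells. Spon1 was at 177 ± 115, 247 ± 61.6 and 7.43 ± 5.09 CPM. Whether the cells with neither gene mix layer 6-like and shell-like cells was not tested. Accn1 was nearly constant in Synpr-only cells, at 30.9, 33.0, 31.2 and 32.4 CPM in projection mice 1 to 3 and the blindly sampled mouse. In cells with neither it was at 60.7, 123, 101 and 61.6 CPM, 1.90 to 3.74 times the Synpr-only level of the same mouse and above it in 4 of 4. Slc30a3-only cells held 110, 133, 147 and 78.6 CPM. These exceeded the cells with neither in 4 of 4 mice. In mouse 2 and in the blindly sampled mouse the ratio was 1.08 and 1.28, with counting intervals that include 1 (0.989 to 1.18 and 0.986 to 1.66). The order of these neighbors is thus uncertain in those animals by counting error alone. The intervals do not measure the spread of cells or of animals in any mouse.

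Accn4 was rare in Synpr-only cells. These held 3 counts in 3 of 420 cells, whereas Slc30a3-only cells held 586 counts and 148 of 348 cells had at least 1. The ratio between them was at least 48.1 in projection mouse 1, 112 (95% counting interval 30.6 to 926) in mouse 2, 283 (50.3 to 11245) in mouse 3 and at least 12.2 in the blindly sampled mouse. Cells with neither gene held 1.64, 4.99, 5.09 and 0 CPM. They lay between the others in the projection mice, whereas in the blindly sampled mouse they and the Synpr-only cells were both at 0. Accn2 was at 61.2 ± 14.4 CPM in Slc30a3-only, 58.1 ± 8.34 in Synpr-only and 65.9 ± 15.1 in the cells with neither, and these ranges overlapped. The 31 cells with both were too few to place, with Accn1 from 30.3 to 150 CPM over mice.

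**Figure D3:**
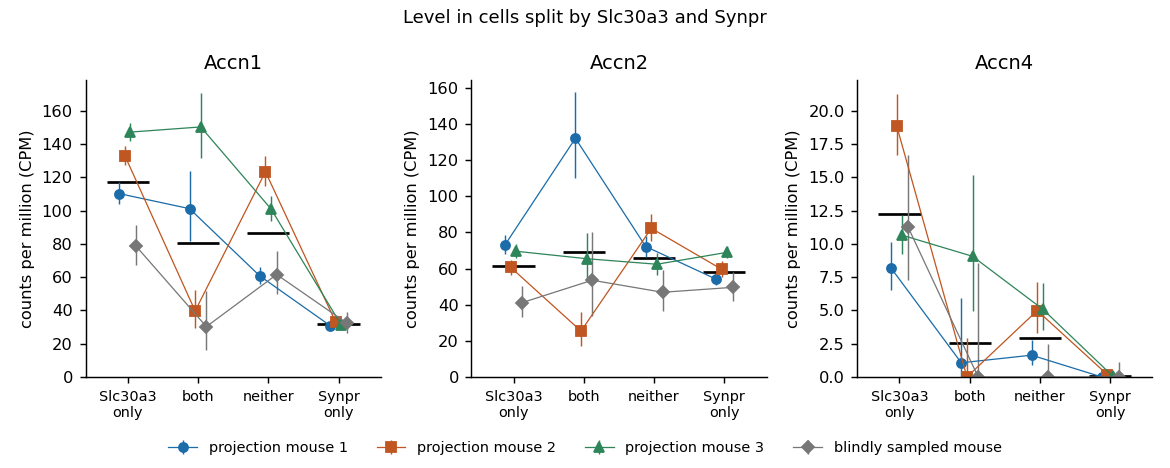
Level of Accn1, Accn2 and Accn4 in CPM (y axes, each from 0) in cells split by Slc30a3 (20 CPM) and Synpr (100 CPM) on the x axis, with a point and 95% Poisson counting interval per mouse and black bars at the means. The Synpr-only points of Accn1 lie together between 30.9 and 33.0 CPM below all points of the Slc30a3-only cells, and Accn4 is near 0 in Synpr-only cells.

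Label and Slc30a3 class were then crossed, since LEC cells are mostly Slc30a3-high. In LEC cells Accn1 was at 122, 146 and 168 CPM in the high class and at 44.4, 105 and 111 CPM in the lower class of projection mice 1 to 3. In RSC cells the lower class held 32.4, 49.8 and 22.6 CPM. The RSC-high class rested on only 13, 7 and 8 cells and held 77.0, 1.25 and 67.4 CPM, the middle value being 1 count. Within the lower class, where all RSC values are well filled, LEC exceeded RSC in each mouse, by 1.37, 2.10 and 4.93 times. The lower class mixes Synpr-only cells with cells of neither gene, which held 31.9 and 86.7 CPM of Accn1 (means over mice). Their shares under the 2 labels were not compared, so this is no label difference within 1 kind of cell.

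For Accn4 the LEC-high class held 9.03, 17.3 and 11.6 CPM and the LEC-lower class 1.72, 3.99 and 4.07 CPM, from 14, 13 and 25 counts. All 3 RSC-lower sums were at 0 counts, so the LEC-lower level was at least 6.26, 8.33 and 25.2 times higher (floor of 3 counts per library). The mix of cells in the lower class limits this comparison in the same way. The RSC-high class held 9 counts in all, 4 in 1 cell of mouse 1 and 5 in 1 cell of mouse 2.

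**Figure D4:**
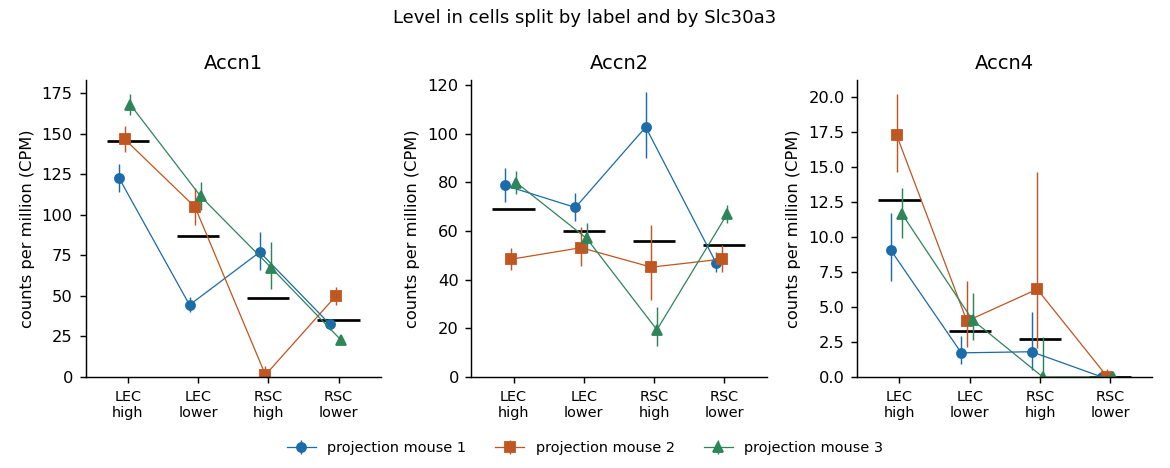
Level of Accn1, Accn2 and Accn4 in CPM (y axes, each from 0) in labeled cells split by retrobead label and Slc30a3 class (x axis), with a point and 95% Poisson counting interval per projection mouse and black bars at the means. RSC-high sums hold 13, 7 and 8 cells and their intervals are wide, and Accn4 is at 0 in RSC-lower cells of all 3 mice.

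In the joint fit of these 4 groups (12773 genes), few differences could be called. Between the classes within LEC, 0.493% of genes passed and none of the 3 members did, also at an unadjusted p under 0.05 and by DESeq2. Accn1 differed there by 0.73 (95% interval -0.67 to 2.13, adjusted p = 1) and Accn4 by 1.94 (-0.39 to 4.27, adjusted p = 0.891). Between the classes within RSC, 1.41% passed and 1 of 3 members did, Accn4 with an adjusted p of 0.0490, which rests on the 9 counts in 2 cells against 0 and became 0.0904 with the mouse as a block. Accn1 differed there by 0.52 (-0.92 to 1.97, adjusted p = 0.807).

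Between the labels within Slc30a3-high cells 0.767% of genes passed and no member did by edgeR or DESeq2, with 1 at an unadjusted p under 0.05, namely Accn1 (95% interval of the log2 difference 0.04 to 2.95, adjusted p = 0.328). Between the labels within lower cells 0.141% passed and no member did by edgeR (Accn1 1.29, -0.13 to 2.71, adjusted p = 0.987, and Accn4 adjusted p = 0.133), while DESeq2 called Accn4 (adjusted p = 0.000595), the member at an unadjusted p under 0.05. The interaction passed in 1 gene, 0.00783%, and in no member by either tool, with Accn4 at an unadjusted p under 0.05 (adjusted p = 0.516). The interval of the Accn1 interaction, -1.80 to 2.21, is too wide to tell whether class mattered more under 1 label.

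Counts per cell were uneven. Each of 927 cells was thinned to 20000 counts to set depth aside, leaving out 84 shallower cells, 67 of them from the blindly sampled mouse. Accn1 was then seen in 52.5 to 67.2% of Slc30a3-high cells over the 4 mice and in 29.1 to 38.8% of lower cells (unthinned, 58.6 to 80.5% and 40.4 to 49.6%). Accn4 was seen in 8.57 to 27.5% and in 0 to 4.13% (unthinned, 17.2 to 54.9% and 0 to 6.98%). Accn2 was seen in 39.1 to 54.3% of high and 42.7 to 53.3% of lower cells. In the high class of each mouse, the tenth of cells with most Accn1 held 31.9 to 51.5% of all its thinned counts. That share was 50.6 to 64.1% in the lower class, and for Accn2 it was 43.9 to 51.4% in the high class. It is thus not particular to Accn1 in high cells. What share sampling of few counts gives was not tested.

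Both of the called members could be seen in the same cell. After thinning, 39 of 350 Slc30a3-high cells held Accn1 and Accn4 together, 11.1% (95% exact interval 8.04 to 14.9%), where the product of the single shares is 10.2%. Within the high class, Accn4 was seen in 9.09, 30.6, 19.8 and 9.38% of Accn1-positive cells of projection mice 1 to 3 and the blindly sampled mouse, and in 7.69, 23.8, 11.9 and 10.3% of the others. The product lay inside the interval in the high class. In the lower class 8 of 577 cells held both, 1.39% (0.60 to 2.71%) with a product of 0.516%. Over all thinned cells 47 of 927 did, 5.07% (3.75 to 6.69%) with a product of 3.18%. Both of these sets pool groups that differ in the level of both genes, so the product is no reference for sharing there. The intervals treat cells of a mouse as independent, and in the lower class only projection mice 2 and 3 held Accn4 after thinning (5 and 4 cells).

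Of 11 other acid-sensing receptors and channels, 3 were tested in LEC against RSC and 1 was called, higher in LEC, against 3.83% of all genes. The list median was 0.46 against -0.000772 over all genes. Kcnk3, an acid-inhibited background potassium channel, was at 10.3, 15.5 and 13.6 CPM in LEC cells and at 2.06, 4.25 and 2.92 CPM in RSC cells of projection mice 1 to 3 (log2 difference 2.07, SE 0.44, adjusted p = 0.0359). Its LEC and RSC levels did not overlap. By Slc30a3, none of the 3 was called with edgeR or DESeq2 (2 at an unadjusted p under 0.05 with edgeR), and Kcnk3 differed by 0.82 on the log2 scale (SE 0.31, adjusted p = 0.231). Otop2, a proton channel, and Tmem206, an acid-activated chloride channel, did not pass in either comparison.

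Of 15 listed proteins that bind or regulate these channels, 11 were tested by label and 2 were called, against 3.83% of all genes, with 7 at an unadjusted p under 0.05 and 4 called by DESeq2. Both were lower in LEC: the scaffold Magi1 was at 19.7 ± 5.35 CPM in LEC and 47.4 ± 6.46 in RSC cells (n = 3, log2 difference -1.30, SE 0.25, adjusted p = 0.0235) and the kinase anchor Akap5 at 75.6 ± 9.25 and 141 ± 27.4 CPM (-0.93, SE 0.17, adjusted p = 0.0229). By Slc30a3, 12 were tested and 3 were called, against 3.65% of all genes, with 6 at an unadjusted p under 0.05 and 3 called by DESeq2. The 3 edgeR calls were lower in the high cells, Magi1 (-1.52, adjusted p = 0.0103), the annexin partner S100a10 (-1.37, adjusted p = 0.00833) and the stomatin-like Stoml1 (-0.60, adjusted p = 0.0301). Camk2a, a calcium-dependent kinase, was not called and had the opposite sign there (0.40, adjusted p = 0.231). The list medians were -0.33 and -0.25.

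Genes of acid handling were mostly not called. None of 14 tested acid extruders and bicarbonate carriers passed in either comparison by edgeR (3 by label and 4 by Slc30a3 at an unadjusted p under 0.05, 2 in each by DESeq2, medians -0.21 and -0.15). Of 17 subunits of the vacuolar proton pump, Atp6v1a, a catalytic subunit, was higher in LEC cells (1034 ± 125 against 753 ± 13.5 CPM, log2 difference 0.42, adjusted p = 0.0457). It was the 1 edgeR call by label among the 17, against 3.83% of all genes. There 7 subunits had an unadjusted p under 0.05, and DESeq2, which called 1121 genes in all, called 4. The share of all genes at an unadjusted p under 0.05 is not given here. Values had both signs, such as 0.42 for Atp6v1b2, -0.27 for Atp6v0e2 and -0.55 for Atp6v1h, with a list median of 0.02. None was called by Slc30a3 with edgeR or DESeq2 (5 at an unadjusted p under 0.05). Of the DEG/ENaC relatives only Scnn1a was tested and it did not pass (0.58 and 0.32), and Accn5 had 1 count in all kept cells.

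**Figure D5:**
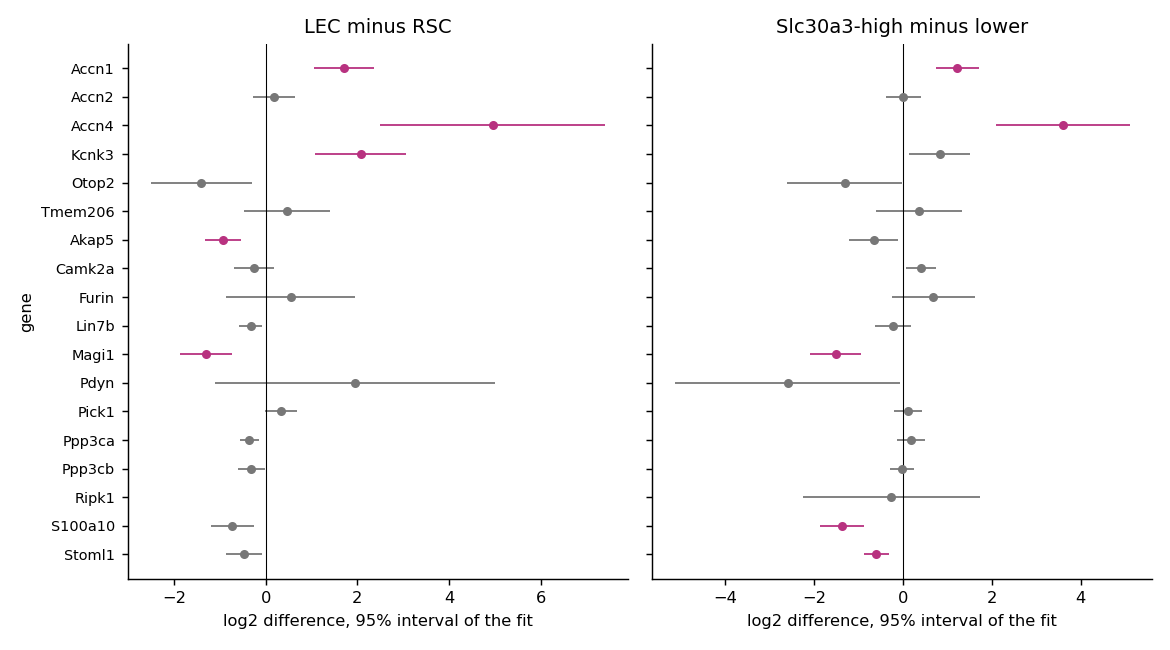
Log2 difference with its 95% interval from the fit (x axes, separate scales) for the members, other acid sensors and channel partners (y axis), for LEC minus RSC on the left and Slc30a3-high minus lower on the right, with genes past the threshold in magenta. Accn1 and Accn4 lie to the right of 0 and Magi1 to the left in both panels, while Accn2 lies at 0.19 and 0.01.

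Likeness of pattern was measured over 18 sums of the projection mice (mouse by label by Slc30a3 class), as Pearson's r of log2 CPM with each mouse's mean removed, against up to 8606 genes. These sums share libraries and depth, and the values are a description. The genes most like Accn1 were Wscd1 (r = 0.94), N4bp2l1 (0.92) and Cyb561 (0.91), those most like Accn4 were Syn2 (0.93), Gprin1 (0.92) and Gpc4 (0.92), and those most like Accn2 were St7l (0.88), Zfp706 (0.86) and Cox4nb (0.86). Accn1 and Accn4 themselves had r = 0.42 (Spearman's rho 0.68), and Accn2 had 0.18 with Accn1 and 0.27 with Accn4.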

How the data were processed

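Single cells of 4 mice on 13 plates were captured by hand and sequenced from the 3′ end with barcoded oligo(dT) primers. Per the labels and methods the authors aligned reads with STAR to NCBIM37 and analysed cells with Seurat. The deposited tables hold raw counts per gene and cell, not normalized, in 1 table per experiment (blind sampling, projections), with 16575 genes in both. The counts are taken as reads, since the totals with spike-ins (141875 ± 98423 a kept cell, mean ± SD) match the read depth in the methods, and strand handling is not given in the sources used here. Animal and bead label of each cell come from deposited metadata columns.

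Spike-ins (89 rows, 7.74% of counts) were left out. Cells with no Snap25 (27) or no Slc17a7 (74) were dropped, and doublets were not called. Counts were summed per mouse and group (at least 5 cells) and tested with edgeR 4.0.16 (TMM, filterByExpr, quasi-likelihood F test, Benjamini-Hochberg, threshold 0.05) in R 4.3.3, checked on simulated data, with DESeq2 1.42.0 as an alternative. Slc30a3 itself was left out of tests on its split. Levels are CPM of the sums, given per mouse, and since counts come from transcript ends they were not compared between genes. Intervals are Poisson or exact (95%), and the interval of a ratio is an exact conditional binomial one. All cover counting error only, as does the floor of 3 counts, and a bound from that floor takes the other count as exact. Since the counts are taken as reads after PCR, several can come from 1 molecule. The intervals are then too narrow even for counting error, and the bounds from the floor too firm. Sums of the same mouse come from the same animal, so mice pair the groups (correlation of deviations from group means 0.0289 to 0.0686 by label, 0.168 to 0.529 by Slc30a3). The main fits left this pairing out, and the fits with the mouse as a block took it in.

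Members, gene lists and tests were chosen with earlier results of these data known. Genes named are the members, listed pathway genes past the threshold, markers, and the 3 genes most like each member (mean of at least 10 CPM, pseudocount 1). Camk2a, Otop2, Tmem206, Scnn1a, Accn5 and the pump subunits other than Atp6v1a were named after their values were seen. Promoters and gene positions are on GRCm38, used only for gene layout, and 3 of 4 members had a promoter entry. Of the listed acid-sensing genes, 1 is not reported here. The alternatives were other tools, scalings, filters, Slc30a3 limits and left-out mice.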

Additional observations from a re-analysis of the deposited data

Results flagged for a closer look

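Of 30 groups of 4 mice, 3 held a value far from the others by Dixon's criterion, and chance alone gives about 1 in 20. In unlabeled Slc30a3-high cells Accn1 was lowest in the blindly sampled mouse, at 70.8 CPM against 105 CPM in the nearest mouse. In the same cells Accn4 was highest in projection mouse 2, at 19.1 CPM against 10.1 CPM. In the cells high for both Slc30a3 and Synpr, Accn4 stood at 9.07 CPM in projection mouse 3 against 1.07 CPM in the nearest mouse, from sums of 5 to 11 cells.

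Of the 74 cells with Snap25 but no Slc17a7, which entered no comparison, 7 held Accn1 and 9 held Accn2. Pooled over the 74, Accn1 was at 29.0 CPM (34 counts) and Accn2 at 32.4 CPM (38 counts), with 1 count of Accn4. Of these, 24 counts of Accn1 and 25 of Accn2 came from the 4 cells that held both Gad1 and Gad2. The median total of the 74 was 6597 counts.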

How the results depend on the processing

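Leaving out 1 mouse at a time moved most counts of called genes and several members' calls. By label the count ranged from 21 to 344, Accn1 from 1.31 to 2.01 and Accn4 from 4.20 to 5.60 (log2). By Slc30a3 the count ranged from 107 to 645, Accn1 from 1.06 to 1.34, Accn4 from 3.38 to 3.85 and Accn2 from -0.14 to 0.093. In the joint fit the counts ranged from 8 to 25 (class within LEC), 0 to 22 (class within RSC), 2 to 14 (label within high), 0 to 2 (label within lower) and 0 to 2 (interaction). There Accn4 within RSC had adjusted p from 0.201 to 0.278, Accn1 ranged from -0.031 to 1.36 within RSC and from -0.47 to 0.79 for the interaction, and Accn2 from -0.90 to 0.65 within RSC, -0.28 to 1.01 within high, -0.088 to 0.34 within lower and -0.62 to 1.10 for the interaction.

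With the mouse as a replicate block, Accn4 by label was 5.13 (adjusted p = 0.0655), Accn4 within RSC had adjusted p = 0.0904, 1043 genes passed by Slc30a3, 10 by label within lower and 0 for the interaction, and Accn2 changed sign at -0.0060 by Slc30a3 and -0.092 within RSC. The block changed no other member's call. DESeq2 called 1121 genes by label, 966 by Slc30a3, 221 and 647 by class within LEC and RSC, 613 and 109 by label within high and lower, and 70 for the interaction, and Accn4 by label within lower had adjusted p = 0.000595. Thinning gave 828 genes by label and 0.758 CPM of Accn4 in RSC cells, and left Accn4 too low to be tested in either comparison. Without cells holding markers of other types, chosen after seeing the data, 298 genes passed by label and Accn4 was 4.61 (adjusted p = 0.0693). By Slc30a3, 275 genes passed with a limit of 1 count, 1141 against Synpr-high cells, and 95 within unlabeled cells, where Accn4 was 3.67 (adjusted p = 0.166) and Accn2 -0.34. The cause of these changes was not tested. On the plate of both labels Accn4 was at 0 in RSC cells, so it has a lower bound there and no log2 difference. Depth limits Accn3 and Accn4 most, and the blindly sampled mouse throughout.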

Other observations

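The 27 cells without Snap25 held no count of any member at a median total of 1640 counts. Among the cells without Slc17a7, 4 held both Gad1 and Gad2, which make GABA. These 4 cells gave 37.2 CPM of Accn1 (95% Poisson interval 23.8 to 55.3), all in 1 cell, and 38.7 CPM of Accn2 (25.1 to 57.1) in 3 cells, and no Accn3 or Accn4.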
